A study of Rattus norvegicus with 12 samples.

Results

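The 10 genes described here make and break down sphingomyelin, make and remove sphingosine 1-phosphate (S1P), or receive its signal: Sgms1, Sgms2, Smpd1, Smpd2, Smpd3, Sphk1, Sphk2, Sgpl1, Sgpp1 and S1pr1. They were chosen by name, as the rows of the deposited table whose platform gene symbol is one of these, and all 10 had a row among 16592 named genes. Whole-liver RNA came from 6 PCK and 6 control rats, males aged 10 weeks on the same standard diet, and was read on Affymetrix arrays. PCK rats carry a germline mutation of Pkhd1, whose human counterpart is mutated in recessive polycystic kidney disease, and form cysts in bile ducts and kidneys. The labels give the strain of the PCK rats as Crj:CD/SD, a Japanese Sprague Dawley colony, and that of the controls only as Sprague Dawley, so the effect of the mutation and a difference between colonies cannot be told apart. The comparison asks which transcripts differ in the cystic liver, where albumin (Alb) was the brightest gene on every array.

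Sphingomyelin is a membrane lipid built in the Golgi by moving the phosphocholine head of phosphatidylcholine onto ceramide. Sphingomyelinases take the head off again and return ceramide, ceramidases release sphingosine from ceramide, and sphingosine kinases phosphorylate it to S1P. S1P is either cleaved for good by the lyase in the endoplasmic reticulum or turned back into sphingosine by phosphatases, and what leaves the cell acts on G protein-coupled receptors. In the liver, S1P receptors are known from the sinusoidal endothelium, stellate cells, hepatocytes and bile duct cells.

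In PCK livers the sphingomyelin synthase Sgms2 and the acid sphingomyelinase Smpd1 rose, and the S1P phosphatase Sgpp1 and the S1P receptor S1pr1 fell. The changes were moderate, from 1.20-fold for Smpd1 to 1.39-fold for Sgms2 among the rises, and control livers exceeded PCK livers 1.27-fold for Sgpp1 and 1.39-fold for S1pr1. The S1P kinase Sphk2 and the lyase Sgpl1 stayed within 0.015 log2 units of the control mean. With limma and Benjamini-Hochberg adjustment over all named genes, 4 of 10 members passed the threshold of 0.05, 2 higher and 2 lower. Of all 16592 named genes 38.3% passed, 17.4% higher and 21.0% lower, so a share of 4 in 10 lies near that of the table and says nothing particular about this pathway. The split between higher and lower calls over all genes rested on the centring: 45.3% of calls were higher as deposited and 63.2% with the median deviation of the brightest 25% of genes set to 0, a setting chosen after seeing the data, in which the 4 members kept their direction and their call. Values are log2 signals in which the table's median is 5.66. Fold changes are PCK minus control with a moderated SE, and 95% intervals are those of single genes, not adjusted.

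**Figure D1:**
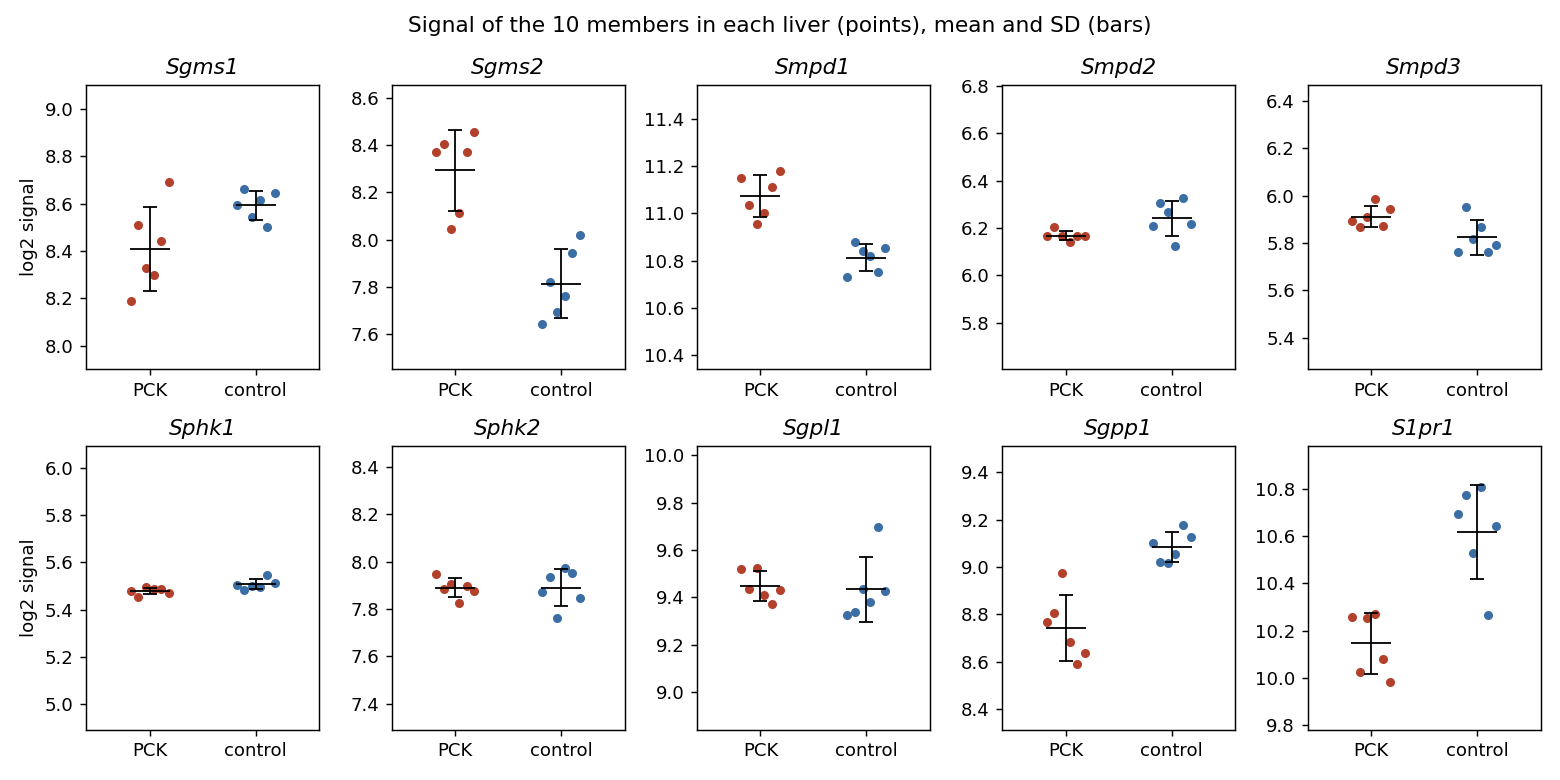
Log2 signal (vertical axes, all of equal span) of the 10 members in 6 PCK and 6 control livers; each point is a liver, the long bar the mean and the capped line the SD. Points of Sgms2 and Smpd1 lie higher and those of Sgpp1 lower in all 6 PCK livers than in any control liver, and S1pr1 is lower with 1 control liver among the PCK values.

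The sphingomyelin synthases came first in the pathway. Sgms2, whose enzyme works at the plasma membrane and in the Golgi, had log2 signals of 8.05 at the lowest, 8.37 at the median and 8.46 at the highest in PCK livers, against 7.64, 7.79 and 8.02 in control livers. Every PCK liver lay above every control liver. The mean was 8.29 ± 0.17 in PCK and 7.81 ± 0.15 in control livers (SD, n = 6 each), a rise of 0.48 ± 0.087 (log2, SE; limma adjusted p = 0.00120), which is 1.39-fold with an interval of 1.22 to 1.59.

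Sgms1, the main Golgi sphingomyelin synthase, had log2 signals of 8.19, 8.38 and 8.69 (lowest, median and highest) in PCK livers, against 8.50, 8.60 and 8.66 in control livers. In 4 of 6 PCK livers the signal was under the whole control range, while PCK 6 was above it, so the groups overlapped. The PCK spread was also the wider, with an SD of 0.18 in PCK and 0.061 in control livers. The difference of -0.18 ± 0.073 did not pass (log2, SE; limma adjusted p = 0.0667; interval -0.34 to -0.025). Without PCK 6 it was -0.24 and passed (limma adjusted p = 0.00644). With all livers kept it also passed with dim genes left out (limma adjusted p = 0.0426) and with array weights (limma adjusted p = 0.0371).

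The sphingomyelinases return ceramide. Smpd1, the acid sphingomyelinase of lysosomes whose loss causes Niemann-Pick disease types A and B in humans, had log2 signals of 10.95, 11.08 and 11.18 (lowest, median and highest) in PCK livers, against 10.73, 10.83 and 10.88 in control livers. The groups did not overlap. The mean was 11.07 ± 0.089 in PCK and 10.81 ± 0.057 in control livers (SD, n = 6 each), a rise of 0.26 ± 0.041 (log2, SE; limma adjusted p = 0.000477) or 1.20-fold, interval 1.12 to 1.27.

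Neither neutral sphingomyelinase passed the test. Smpd2, the neutral sphingomyelinase described first, ran from 6.14 to 6.20 in PCK livers, inside the control range of 6.13 to 6.33, and differed by -0.074 ± 0.030 (log2, SE; limma adjusted p = 0.0760). Without control 4, the lowest control liver, it differed by -0.097 and passed (limma adjusted p = 0.00738). Smpd3, the neutral sphingomyelinase of the Golgi and plasma membrane, ran from 5.87 to 5.98 in PCK livers, against 5.76 to 5.95 in control livers, and differed by 0.087 ± 0.034 (log2, SE; limma adjusted p = 0.0659). Without control 2, the highest control liver, it differed by 0.11 and passed (limma adjusted p = 0.00729), as it did at 0.11 after cyclic loess normalization (limma adjusted p = 0.0212) and at 0.11 with the centring on the brightest genes chosen after seeing the data (limma adjusted p = 0.0288). Both lay close to the table's median, where signal is hard to tell from background without detection calls.

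The kinases that make S1P differed little. Sphk1, the cytosolic sphingosine kinase, lay under the table's median on every array, at 5.46 to 5.50 in PCK livers, against 5.48 to 5.54 in control livers. At that signal a low level cannot be told from none, and the difference of -0.028 ± 0.011 did not pass (log2, SE; limma adjusted p = 0.0698). Without control 2 it was -0.032 with a limma adjusted p of 0.0456, and an exact permutation test over the 12 livers gave an adjusted p of 0.0372. Sphk2, the kinase found also in the nucleus and mitochondria, had log2 signals of 7.83, 7.89 and 7.95 (lowest, median and highest) in PCK livers, against 7.76, 7.91 and 7.97 in control livers. Its PCK values lay inside the control range. The difference was -0.00098 ± 0.035, with an interval of -0.077 to 0.075 (log2, SE; limma adjusted p = 0.987), and its sign turned with the normalization, to 0.034 after cyclic loess.

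S1P is removed by 2 routes, and the members Sgpl1 and Sgpp1 of these routes differed in their response. Sgpl1, the lyase that cleaves S1P irreversibly, had log2 signals of 9.37, 9.43 and 9.52 (lowest, median and highest) in PCK livers, against 9.33, 9.40 and 9.70 in control livers. The PCK livers lay among the controls, and the difference was 0.015 ± 0.058, interval -0.11 to 0.14 (log2, SE; limma adjusted p = 0.877). The highest value belonged to control 5; without it the difference was 0.068 and still did not pass (limma adjusted p = 0.130). Sgpp1, the endoplasmic reticulum phosphatase that returns S1P to sphingosine, had 8.59, 8.72 and 8.97 in PCK livers, against 9.02, 9.08 and 9.18 in control livers. All 6 PCK livers lay under all control livers, and the mean was 8.74 ± 0.14 in PCK and 9.08 ± 0.063 in control livers (SD, n = 6 each). The fall was -0.34 ± 0.059 (log2, SE; limma adjusted p = 0.000895), or 0.79-fold with an interval of 0.72 to 0.86.

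S1pr1, the S1P receptor of endothelium and lymphocytes that keeps vessel walls tight, was lower in PCK livers. Its log2 signals were 9.98, 10.17 and 10.27 (lowest, median and highest) in PCK livers, against 10.27, 10.67 and 10.81 in control livers. Only control 5, at 10.27, reached the PCK range; the other 5 control livers, from 10.53 to 10.81, lay above it. The mean was 10.15 ± 0.13 in PCK and 10.62 ± 0.20 in control livers (SD, n = 6 each), a fall of -0.47 ± 0.092 (log2, SE; limma adjusted p = 0.00191), or 0.72-fold with an interval of 0.63 to 0.83. Without control 5 the fall was -0.54 (limma adjusted p = 0.000187).

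S1pr1 was measured in whole liver, where fewer endothelial cells and less RNA per cell cannot be told apart. Of 12 measured endothelial markers 4 were lower (Tek, Lyve1, Clec4g and Erg), 1 was higher (Vwf) and 7 did not pass, 41.7% called beside 38.3% of all named genes. Tek, an angiopoietin receptor, fell by 0.38 on the log2 scale and the sinusoidal lectin Clec4g by 0.99, while the sinusoidal Stab2, at -0.18, did not pass. Of the pan-endothelial genes, Pecam1, at 0.0024, and Cdh5, at 0.12, did not pass, while Erg fell by 0.16. The markers thus did not divide by sinusoidal or pan-endothelial type. The summed linear signal of the 12 markers ran from 1840 to 2273 in PCK livers and from 2272 to 2708 in control livers. That sum is weighted toward the bright probes Lyve1 and Clec4g, both called lower, and the median change of the 12 markers was -0.067 log2 units. Pecam1, Robo4 and also the called markers Vwf and Erg lay near or under the table's median, where signal is hard to tell from background. The part of endothelial content in the fall of S1pr1 was not tested.

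**Figure D2:**
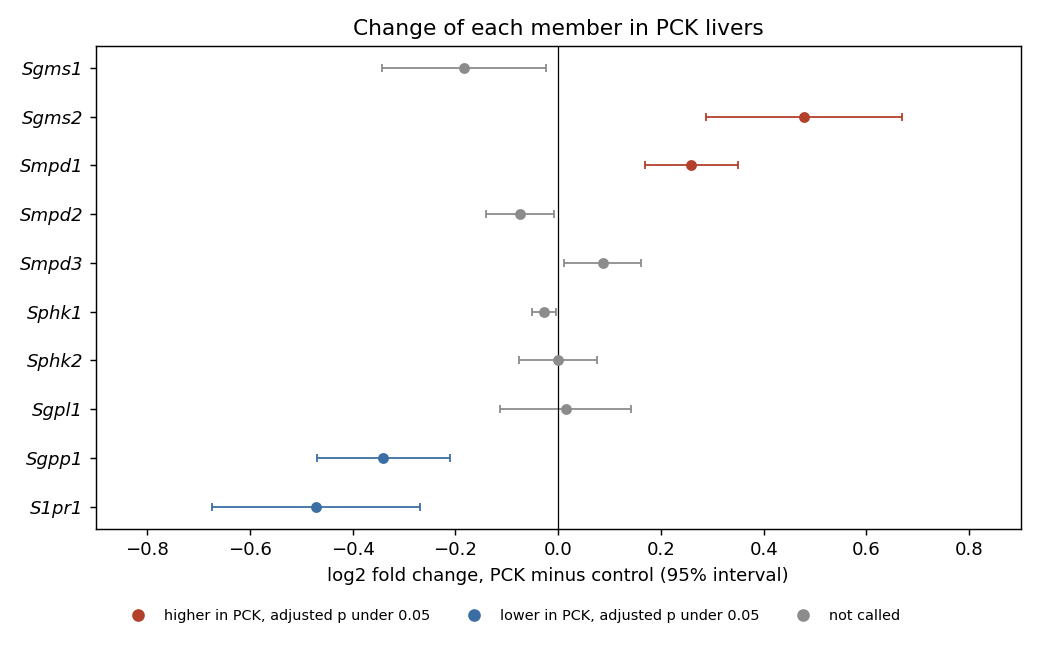
Log2 fold change of each member, PCK minus control (horizontal axis), with the 95% interval of limma; red points passed as higher, blue as lower and grey did not pass at an adjusted p of 0.05. Sgms2 at 0.48 and S1pr1 at -0.47 lie farthest from 0, and Sphk2 and Sgpl1 sit at 0.

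Over the members the median change was -0.014 and the median absolute change 0.14 log2 units, beside -0.0067 and 0.051 over all named genes. The absolute change of Sgms2 was larger than that of 93.4% of named genes, that of S1pr1 than 93.1%, that of Sgpp1 than 88.9% and that of Smpd1 than 84.4%. In 3 of 10 members the groups did not overlap, as in 21.6% of all named genes. By mean signal 9 of 10 members lay above the table's median, Sphk1 being the exception, against 8730 of 16592 named genes. With dim genes left out, 4606 of 8295 named genes passed. The medians, ranks and shares over all named genes are therefore not matched to the members for signal. They do not show that the members changed more than other genes of like signal.

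Because a call in one gene and none in its relative does not show that they differ, the signals of related members were subtracted within each liver and the difference compared between groups by an exact permutation test. This shows unequal change of signal only. Of 6 pairs 5 passed after Benjamini-Hochberg adjustment over the 6. Sgms1 minus Sgms2 was 0.12 ± 0.16 in PCK and 0.78 ± 0.15 in control livers (SD, n = 6 each), a shift of -0.66 ± 0.092 toward Sgms2 that all 6 PCK livers showed beyond every control liver (exact permutation p = 0.00216, 2-sided, the lowest this design allows; adjusted p = 0.00433). The synthases therefore changed unequally, with or without PCK 6, over a range of -0.71 to -0.60 when any 1 liver was left out.

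Among the sphingomyelinases, Smpd1 minus Smpd2 was 0.33 ± 0.053 higher in PCK livers, at 4.79 to 5.01 in PCK livers against 4.43 to 4.70 in control livers (exact permutation test, 2-sided, adjusted p = 0.00433). Smpd1 minus Smpd3 was 0.17 ± 0.048 higher (exact permutation test, adjusted p = 0.0130), with 4 of 6 PCK livers above all control livers. Smpd2 minus Smpd3 was lower, by -0.16 ± 0.049 (exact permutation test, adjusted p = 0.0130), with 3 of 6 PCK livers under all control livers. Smpd2 and Smpd3 both lie near the table's median, where signal is hard to tell from background, and neither was called alone. The size of the differences that involve them is therefore uncertain. For these pairs the test shows unequal change of signal and cannot decide whether the RNA changed unequally.

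Sgpl1 minus Sgpp1 was 0.71 ± 0.096 in PCK and 0.35 ± 0.10 in control livers (SD, n = 6 each). This shift of 0.35 ± 0.058 put all 6 PCK livers beyond every control liver (exact permutation test, 2-sided, adjusted p = 0.00433). Sgpl1 alone differed by 0.015 and Sgpp1 by -0.34, so the shift reflects the fall of Sgpp1. Of other phosphatases that can act on S1P, Plpp2 and Sgpp2 rose, by 1.40 and 0.12 log2 units, and Plpp1 and Plpp3 did not pass. The pair therefore does not show S1P removal turning toward the lyase. The kinases gave no such shift: Sphk1 minus Sphk2 differed by -0.027 ± 0.036 (exact permutation test, adjusted p = 0.498), with Sphk1 too dim to follow.

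**Figure D3:**
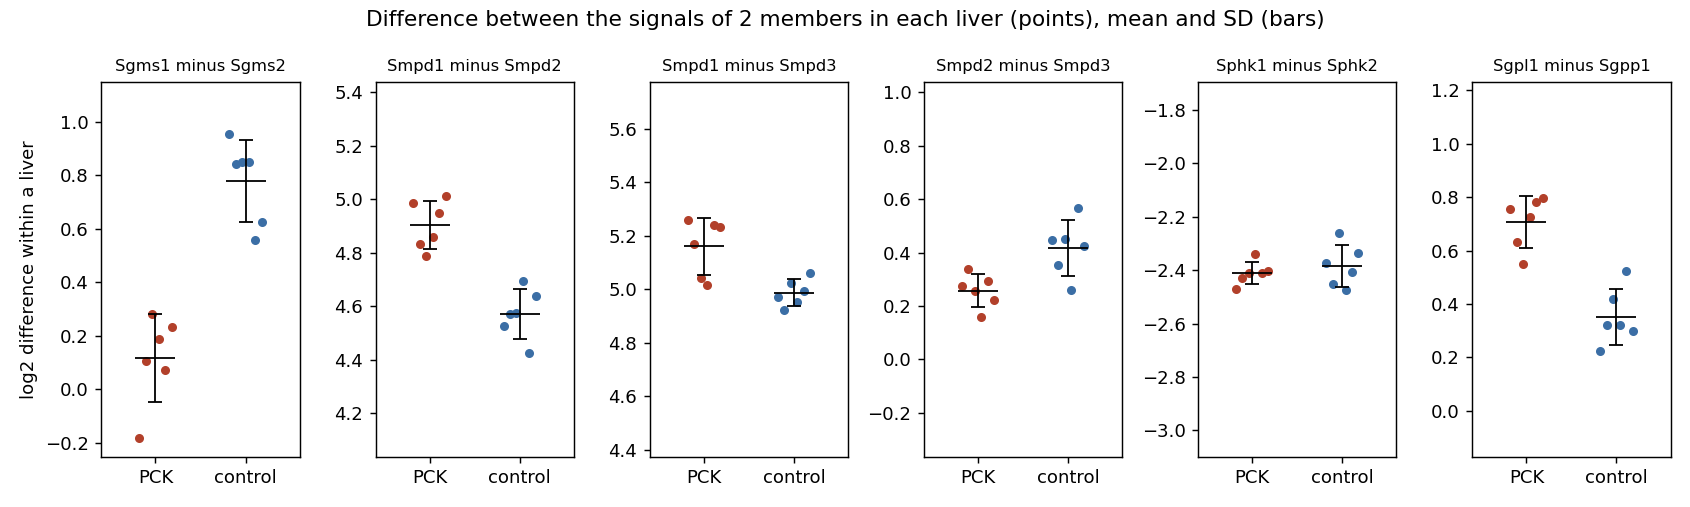
Log2 difference between the signals of 2 members within each liver (vertical axes, all of equal span) for 6 pairs; each point is a liver, with the mean and SD of 6 PCK and 6 control livers. The groups separate fully for Sgms1 minus Sgms2, Smpd1 minus Smpd2 and Sgpl1 minus Sgpp1, and overlap for the 3 other pairs.

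RefSeq promoter windows, from 250 bases before to 50 after the start site in build GRCr8, were matched by gene identifier for 9 of 10 members. The windows of the 4 members that passed the test are printed to show what stands at the start sites of the genes that moved, 5′ to 3′ on the gene's strand, with the GC box GGGCGG (the site known for Sp1 family factors) and the E-box core CACGTG, searched on both strands, in capitals.
Sgms2: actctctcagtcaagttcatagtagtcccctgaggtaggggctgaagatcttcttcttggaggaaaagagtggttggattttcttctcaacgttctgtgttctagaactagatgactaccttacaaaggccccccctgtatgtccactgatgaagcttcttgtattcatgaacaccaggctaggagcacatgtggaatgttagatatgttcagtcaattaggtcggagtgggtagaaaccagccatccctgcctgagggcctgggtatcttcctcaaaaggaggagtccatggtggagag
Smpd1: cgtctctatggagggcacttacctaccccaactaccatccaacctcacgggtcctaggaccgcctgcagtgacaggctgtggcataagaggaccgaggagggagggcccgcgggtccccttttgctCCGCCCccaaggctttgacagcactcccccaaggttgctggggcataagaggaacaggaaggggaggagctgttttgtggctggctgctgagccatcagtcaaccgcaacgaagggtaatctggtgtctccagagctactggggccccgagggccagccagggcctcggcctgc
Sgpp1: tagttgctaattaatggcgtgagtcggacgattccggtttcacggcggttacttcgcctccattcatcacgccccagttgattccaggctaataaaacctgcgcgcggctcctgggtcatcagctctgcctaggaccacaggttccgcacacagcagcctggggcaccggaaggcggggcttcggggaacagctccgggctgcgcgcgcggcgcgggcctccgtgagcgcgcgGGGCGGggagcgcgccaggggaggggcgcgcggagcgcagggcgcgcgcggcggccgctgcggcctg
S1pr1: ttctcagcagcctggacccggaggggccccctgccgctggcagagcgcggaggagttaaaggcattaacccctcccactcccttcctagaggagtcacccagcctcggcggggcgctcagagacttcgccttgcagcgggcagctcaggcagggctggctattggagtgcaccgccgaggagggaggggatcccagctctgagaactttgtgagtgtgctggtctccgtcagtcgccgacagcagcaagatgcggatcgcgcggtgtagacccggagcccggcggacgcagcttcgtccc
They lie at chr2:222590758-222591057 on the minus strand (Sgms2), chr1:169304522-169304821 on the plus strand (Smpd1), chr6:100182165-100182464 on the minus strand (Sgpp1) and chr2:206314021-206314320 on the minus strand (S1pr1). The window of Sgms2 is the single one listed and starts inside the gene's RefSeq span. The window of Smpd1 and that of Sgpp1 hold 1 GC box each, and those of Sgms2 and S1pr1 hold none. A GC box is found in 33.1% of 33469 promoter windows of this length and the E-box core in 6.42%; the E-box core is in none of the 4. The share of G and C was 47.7% for Sgms2, 62.7% for Smpd1, 69.7% for Sgpp1 and 66.3% for S1pr1. The rise of Sgms2 and the rise of Smpd1 thus belong to windows of unlike base composition. These windows also differ in place, that of Sgms2 inside the gene's span and that of Smpd1 at its gene's start, which limits the comparison. The matches describe letters only.

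Other genes of the pathway were followed through lists by role. Of 43 listed, 34 were measured, and of these 12 were higher, 4 lower and 18 did not pass, 47.1% called beside 38.3% of all named genes. The median change was 0.026 log2 units. Without the genes of de novo ceramide synthesis the counts were 9 higher and 2 lower of 21, 52.4% called. Of these 21 genes 17 lay above the table's median by mean signal. With dim genes left out, 4606 of 8295 named genes passed. The shares therefore say nothing particular about these lists, which were chosen with earlier results of these data known.

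The other S1P receptors were S1pr2 to S1pr5. S1pr2, a receptor that signals through G12/13 proteins and that conjugated bile acids also activate in rodent hepatocytes, had log2 signals of 6.79, 7.08 and 7.53 (lowest, median and highest) in PCK livers, against 5.60, 5.84 and 6.04 in control livers. The groups did not overlap, and the rise was 1.30 ± 0.14 (log2, SE; limma adjusted p = 3.07e-05). Its control level lay near the table's median, so the size of the rise is not exact. S1pr3, S1pr4 and S1pr5 differed by 0.028, 0.014 and 0.028 and did not pass. S1pr3 lay near the table's median, and S1pr4 and S1pr5 lay under it on every array.

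Of the genes that carry S1P out of and between cells, Spns2, an exporter of endothelial cells, rose, at 0.16 ± 0.052 (SE of the log2 change; adjusted p = 0.0320, limma). Apom, the high-density lipoprotein protein that binds S1P in plasma and is made by hepatocytes, fell, at -0.16 ± 0.044 (limma adjusted p = 0.0138). In both the groups overlapped.

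Among phosphatases that can act on S1P, Plpp2, a membrane enzyme that also takes phosphatidate and lysophosphatidate, had 8.74, 9.25 and 9.52 (lowest, median and highest) in PCK livers, against 7.52, 7.79 and 8.19 in control livers. It rose in all 6 PCK livers above every control liver, by 1.40 ± 0.14 log2 units (adjusted p = 1.62e-05, limma), the largest change among the genes of the pathway measured here. Its relatives Plpp1, at -0.065, and Plpp3, at -0.0059, did not pass. Sgpp2, the second S1P phosphatase of the endoplasmic reticulum, rose by 0.12 ± 0.024 (limma adjusted p = 0.00178) at signals of 5.42 to 5.56 in PCK livers and 5.36 to 5.44 in control livers, under the table's median.

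Of 5 measured genes of other sphingomyelin enzymes and ceramide transfer, 2 rose and none was lower, 40.0% called beside 38.3% of all named genes. Smpdl3a, a secreted and lysosomal relative of Smpd1 that acts on nucleotides, ran from 10.56 to 10.79 in PCK livers, against 10.01 to 10.52 in control livers, and rose by 0.44 ± 0.087 (log2, SE; limma adjusted p = 0.00199). Cert1, which carries ceramide from the endoplasmic reticulum to the Golgi for sphingomyelin synthesis, ran from 6.98 to 7.15 in PCK livers, against 6.67 to 6.90 in control livers, and rose by 0.29 ± 0.046 (limma adjusted p = 0.000489). Samd8, a relative of the synthases that makes ceramide phosphoethanolamine, differed by -0.091 (limma adjusted p = 0.0619). The membrane-anchored Smpdl3b differed by -0.062 (limma adjusted p = 0.0527) and the neutral sphingomyelinase Smpd4 by 0.012 (limma adjusted p = 0.737). Smpdl3b lay under the table's median on every array, where a low level cannot be told from none.

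Ceramidases supply the sphingosine from which S1P is made. Asah1, the lysosomal acid ceramidase that follows Smpd1 in breaking down sphingomyelin, had 8.21, 8.42 and 8.54 (lowest, median and highest) in PCK livers, against 7.09, 7.46 and 7.53 in control livers. The groups lay apart by more than the range of either. Asah2, the neutral ceramidase, rose by 0.31 ± 0.045 log2 units (adjusted p = 0.000238, limma). It ran from 6.01 to 6.29 in PCK livers and from 5.75 to 5.86 in control livers. Its control level lay near the table's median, so the size of this rise is not exact. The alkaline ceramidases Acer2 and Acer3 differed by 0.065 and 0.060 and did not pass. Of the genes that handle what the lyase releases, Aldh3a2, which oxidises the long-chain aldehyde, fell, at -0.29 ± 0.021 (limma adjusted p = 2.38e-06), with 12.11 to 12.24 in PCK livers, against 12.44 to 12.51 in control livers. Tecr, a reductase on the way from that aldehyde to palmitoyl-CoA and in fatty acid elongation, rose by 0.21 ± 0.039 (limma adjusted p = 0.00142).

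**Figure D4:**
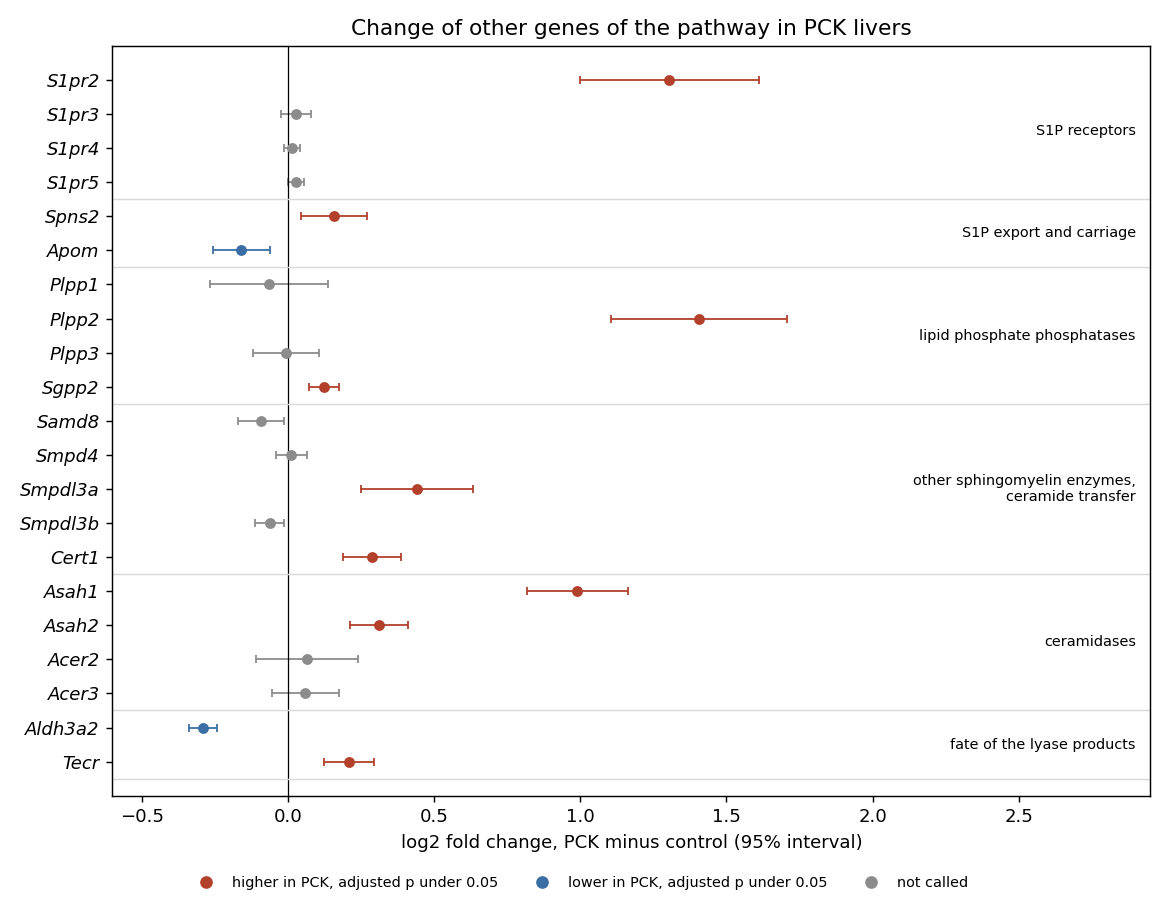
Log2 fold change, PCK minus control (horizontal axis), with the 95% interval of limma for 21 other genes of the pathway grouped by role; colours mark genes higher, lower or not called at an adjusted p of 0.05. Plpp2 at 1.40, S1pr2 at 1.30 and Asah1 at 0.99 lie farthest to the right, and Aldh3a2 at -0.29 farthest to the left.

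**Figure D5:**
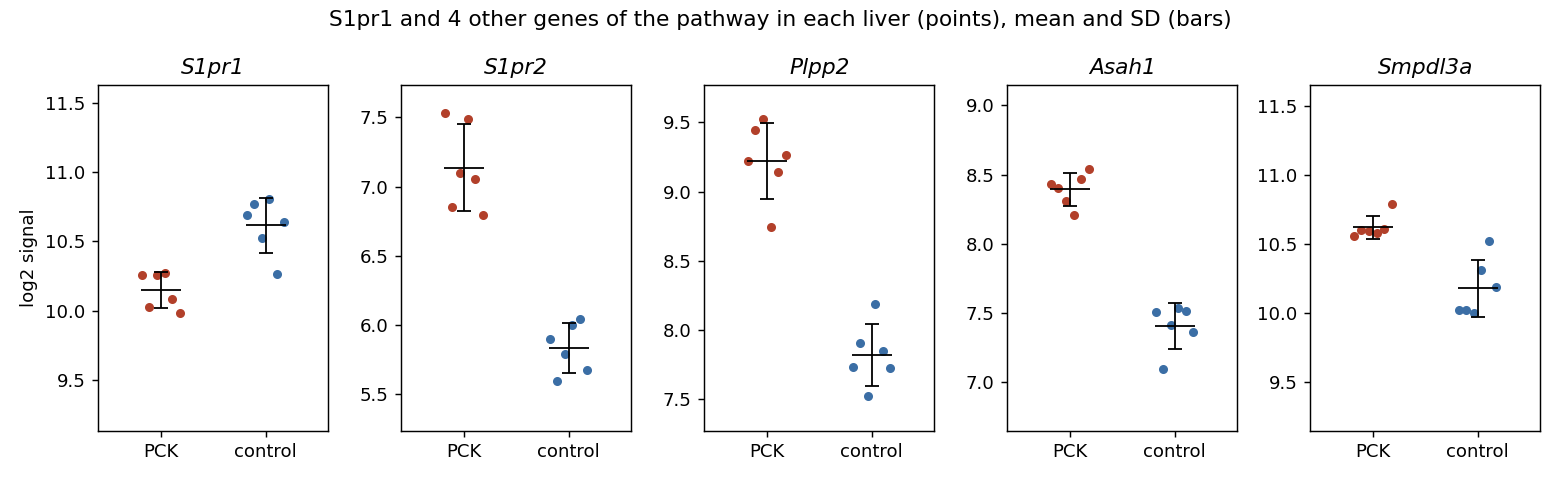
Log2 signal (vertical axes, all of equal span) of S1pr1, S1pr2, Plpp2, Asah1 and Smpdl3a in 6 PCK and 6 control livers; each point is a liver, with mean and SD. S1pr2, Plpp2, Asah1 and Smpdl3a are higher in all 6 PCK livers than in any control liver. S1pr1 is lower on average, with 5 of 6 PCK livers below all control livers.

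Markers of other liver cells moved with the groups, in a table where 17.4% of all named genes were higher and 21.0% lower. All 6 measured bile duct markers rose, with a summed linear signal of 501 to 789 in PCK livers and 287 to 308 in control livers. Cftr lay under the table's median on every array, and Tspan8 and Krt7 did in every control liver, so the size of their rises is not exact. Of 6 macrophage markers 5 rose and Cd163, at -0.080, did not pass, 83.3% called beside 38.3% of all named genes. The sums were 5466 to 7127 in PCK livers and 2222 to 3485 in control livers. Of 9 stellate cell and fibroblast markers 6 rose and 3 fell (Lrat, Reln and Hgf), with sums of 2438 to 3147 in PCK livers and 1114 to 1668 in control livers. In PCK livers the macrophage sum is weighted toward the bright probe Lyz2, and the stellate cell and fibroblast sum toward Dcn. These probes were higher by 2.35 and 2.01 log2 units. The part of bile duct cells, macrophages, stellate cells and fibroblasts in the rises of Sgms2, Smpd1, S1pr2, Plpp2 and Asah1 was not tested. The 7 measured hepatocyte markers were among the brightest genes, 2 of them lower (Hnf4a at -0.29 and Serpina1 at -0.067). Their sums were 83417 to 84988 in PCK livers and 85002 to 86559 in control livers. The sorted columns are identical, so every array holds the same set of brightest values. Alb had the top value on every array, and Tf, Ahsg and Ttr shared a few values just under it. This sum thus had little room to move and does not measure hepatocyte content, which was not tested. Lymphocyte, red blood cell and platelet markers lay near background: 5 of 7 T and NK cell markers, 2 of 5 B and plasma cell markers and 2 of 4 red blood cell and platelet markers were under the table's median on every array. Of these lists, 1 T and NK cell marker was higher and 1 lower, 2 B and plasma cell markers were lower, and 1 red blood cell and platelet marker was higher and 1 lower.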

How the data were processed

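Per the labels' protocols, Trizol-extracted liver RNA gave biotinylated cRNA for Affymetrix arrays. The authors deposited 1 table of 19239 gene-level probe sets on 12 arrays; the sorted columns are identical. The log2 values deposited by the authors, 5.14 to 13.98, were thus on a common distribution, as quantile normalization gives; the log2 scale is read from their range. How background was corrected and probes summarised is not given in the labels or the table, and no detection calls were used. A platform symbol was given for 16592 probe sets; 3326 older symbols were replaced through the RefSeq table (GRCr8). Groups and replicate numbers come from the sample titles, which call the livers biological replicates; their number limits the precision.

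All named genes were fitted with limma 3.58.1 in R 4.3.3 (lmFit, eBayes, 2-sided, no filter, Benjamini-Hochberg over 16592 genes). Exact permutation tests used all 924 assignments of 12 livers to 2 groups of 6. On simulated data of 16592 genes for this comparison, 99 of 100 genes changed 1.5-fold and 99 of 100 changed 2-fold were recovered, with 12 false among 210 calls, and 0 calls with no gene changed. Members and lists were chosen with earlier results of these data known. Every member and every measured gene of the first 6 pathway lists was to be named, with up to 3 called genes of de novo synthesis. The other ceramide synthases are named in addition, beside Cers6. Genes of similar pattern were to be named only for a called member changed by at least 0.5 log2 units, and none was. Listed genes with no named row were not analysed here. Alternatives varied normalization, filter, probe sets, variance model, array weights, test, threshold and replicate block, and left out each liver in turn. Figures were drawn with matplotlib 3.10.9.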

Additional observations from a re-analysis of the deposited data

Results flagged for a closer look

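Sgpl1 in control 5 stood apart from the other control livers. Its log2 signal was 9.70, the next highest control value was 9.43 and the lowest 9.33, so the gap took up 0.712 of the group's range, above Dixon's 95% critical value for 6 samples. It was the single flag among 20 groups of 6 checked, and chance flags about 5% of groups. The same liver was the lowest control for S1pr1, at 10.27. Without it Sgpl1 differed by 0.068 (limma adjusted p = 0.130) and S1pr1 by -0.54.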

How the results depend on the processing

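Sgms2, Smpd1, Sgpp1 and S1pr1 kept their direction and their call in each of 21 alternative fits, over changes of 0.44 to 0.53, 0.24 to 0.28, -0.39 to -0.31 and -0.54 to -0.43 log2 units; their highest adjusted p was 0.0165. The counts of members called ran from 2 to 3 higher and from 2 to 3 lower. Of the members not called, Sgms1 passed in 3 of 21 settings (adjusted p 0.00644 to 0.132; with dim genes left out 0.0426, where fewer genes were tested, and with array weights 0.0371), Smpd2 in 1 of 21 (0.00738 to 0.418), Smpd3 in 3 of 21 (0.00729 to 0.130) and Sphk1, which the filter on dim genes removed, in 2 of 20 (0.0372 to 0.759); Sphk2 and Sgpl1 passed in none. Sphk2 changed sign, at 0.00081 centred on the brightest 25%, 0.034 with cyclic loess, 0.0017 with array weights and 0.022 with the median deviation of the brightest genes set to 0; leaving out single livers gave -0.027 to 0.015, and for Sgpl1 -0.0069 to 0.068. Other pathway genes called lower numbered 4, and 2 at an adjusted p under 0.01. The 5 pair differences that passed did so in each of 15 alternatives (adjusted p at most 0.0375). The titles give both groups replicate numbers 1 to 6, which share only a number: deviations of same-numbered livers correlated at -0.137 to 0.165 over genes, and 2 of 12 livers correlated best with their own number. With the replicate block, 2 members were called higher and 2 lower, 12 and 4 other pathway genes, and 5423 of all genes against 6362. Without detection calls, low signals such as those of Sphk1, Smpd3, S1pr4 and S1pr5 cannot be told from background, and no protein or lipid was measured.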

Other observations

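The genes of de novo ceramide synthesis supply the ceramide that the sphingomyelin synthases use. Of 13 measured, 3 were higher and 2 lower, 38.5% called beside 38.3% of all named genes. Cers6, a synthase of ceramides with shorter acyl chains, fell, with 9.37, 9.45 and 9.64 (lowest, median and highest log2 signal) in PCK livers against 10.63, 10.83 and 11.01 in control livers. Its relative Cers5 rose by 0.21 ± 0.041 (log2, SE, limma adjusted p = 0.00221), with a control level near the table's median. Cers2, Cers3 and Cers4 did not pass. Sptlc2, a subunit of the first enzyme of the route, ran from 8.74 to 9.09 in PCK livers, against 8.27 to 8.39 in control livers. Degs1, the desaturase that makes ceramide from dihydroceramide, fell, at -0.26 ± 0.080 (log2, SE; limma adjusted p = 0.0235), with overlapping groups.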
